A study of Mus musculus with 7 samples.

Results

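Inherited metastasis modifiers are genes proposed from mouse crosses in which the strain of the other parent altered how far middle T mammary tumours spread. The 9 genes described here, Sipa1, Rrp1b, Arap3, Cadm1, Ndn, Cnot2, Nup210, Arhgap25 and Luc7l, were chosen for that history, and every probe set to which the platform annotation gives one of these symbols alone was taken. Of the 9 genes, 8 were measured, by 26 probe sets, among 12393 genes measured in all. Arhgap25 had no probe set of its own symbol and is not analysed here.

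The 7 arrays hold total RNA of transplant tumours, 3 labelled Met1 (replicates 1 to 3) and 4 labelled DB7 (replicates 1 to 4), frozen at collection and labelled with biotin. Both are mouse mammary tumour lines that trace back to polyoma middle T transgenic animals. As background, the Met1 line carries the wild-type transgene and metastasises readily, while the DB7 line carries a middle T with altered tyrosine docking sites and does so seldom. The sample labels name no host strain, age or treatment before collection, while the series' design text speaks of adult first-generation offspring of AKR/J or DBA/2J animals and PyMT carriers. The labels were followed here, but they do not say that each array came from its own animal. The p-values therefore reflect only how far these 7 arrays scatter, part of which may be technical. With each tumour line as 1 source, the comparison is between these lines and cannot tell metastatic behaviour apart from any other difference between them.

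Modifier genes act in ordinary cell machinery rather than in a single pathway. Sipa1 encodes a GTPase-activating protein that switches off Rap1, a small GTPase of cell adhesion, and Rrp1b encodes a nucleolar and chromatin protein that binds it. Arap3 and Arhgap25 are GTPase-activating proteins for small GTPases, Cadm1 is a cell adhesion molecule of the immunoglobulin superfamily, and Ndn (necdin) is an imprinted growth suppressor of the MAGE family. Cnot2 is a subunit of the CCR4-NOT complex that shortens messenger RNA tails, Nup210 a membrane glycoprotein of the nuclear pore, and Luc7l a factor of U1 snRNP, which recognises the start of introns. For several of them it is known from such work that the inherited alleles differ in expression level between strains.

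Cadm1, Nup210 and Cnot2 were lower in Met1 than in DB7, and no modifier was called higher in Met1. Only the Cadm1 call held in each fit that left out an array. Under a stricter filter, which asked for values above the median on all 7 arrays, no Cadm1 probe set was tested, and Nup210 and Cnot2 were called. Under quantile normalization and median centring Rrp1b was called higher in place of Cnot2, and with array weights it was called beside the 3. A probe set was tested where 3 or more of the 7 arrays had it above their own median log2 value, and called where limma's adjusted p over all 11704 tested probe sets was under 0.05. By this rule 13 of the 26 probe sets were tested, and 5 of them were called, all lower in Met1, where 31% of all tested probe sets were called in either direction. With each gene represented by its brightest tested probe set, 3 of 6 tested modifiers were called, against 30.9% of all 7482 genes, of which 13% were higher and 17.9% lower in Met1. The Met1 and DB7 values did not overlap in 9 of the 13 tested member probe sets, against 39.4% of all tested probe sets. The median difference, Met1 minus DB7, was -0.24 on the log2 scale over the 13 member probe sets and -0.04 over all tested probe sets. Some probe sets passed the filter only through the group in which they were brighter, so these counts are a description of the members and support no statement about modifiers as a class. In bulk tumour RNA, fewer cells of a type and less RNA per cell cannot be told apart.

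**Figure D1:**
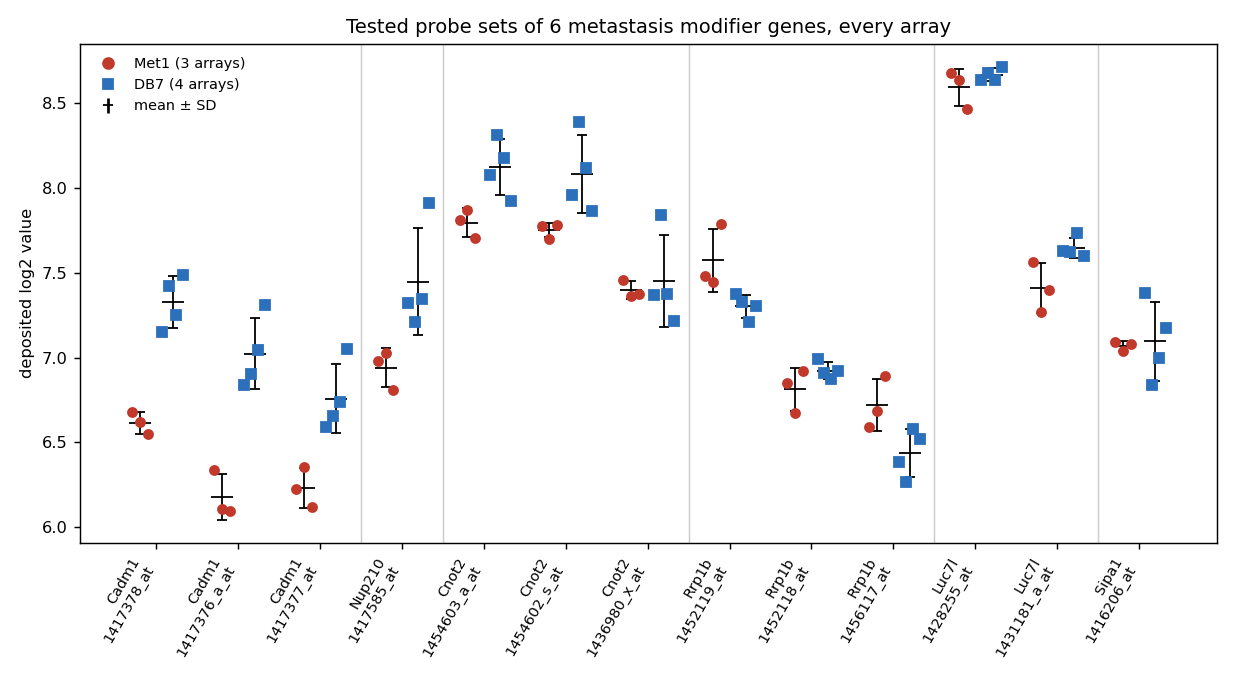
Deposited log2 values (y axis) of the 13 tested probe sets of 6 modifier genes (x axis), with a circle for each Met1 array, a square for each DB7 array, and the mean ± SD of each line as a bar. The 3 Cadm1 probe sets show the widest gap between the lines, Rrp1b has probe sets that differ in sign, and the Sipa1 values of DB7 spread on both sides of Met1.

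The sequences just before the transcription start are given for Nup210 and Cnot2, which were lower in Met1, and for Rrp1b, whose brightest probe set went the other way. They are the 250 bases before the start, 5′ to 3′ on the gene's strand, from RefSeq (GRCm38.p6), using the first start that the table lists for each gene. Capitals mark every GGGCGG (the GC box, bound by Sp1) and CCAAT (the CCAAT box, bound by NF-Y) on either strand.
Nup210 (chr6:91116827-91117076, minus strand): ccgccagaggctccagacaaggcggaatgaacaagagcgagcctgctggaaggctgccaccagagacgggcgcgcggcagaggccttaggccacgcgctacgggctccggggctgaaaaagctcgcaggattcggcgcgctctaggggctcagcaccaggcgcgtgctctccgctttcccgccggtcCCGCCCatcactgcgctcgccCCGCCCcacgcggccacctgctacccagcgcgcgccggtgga
Cnot2 (chr10:116580537-116580786, minus strand): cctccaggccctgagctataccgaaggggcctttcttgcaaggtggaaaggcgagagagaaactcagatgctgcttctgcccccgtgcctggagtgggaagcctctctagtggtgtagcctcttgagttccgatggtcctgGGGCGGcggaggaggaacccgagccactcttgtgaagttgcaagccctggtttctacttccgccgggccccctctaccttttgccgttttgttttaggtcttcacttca
Rrp1b (chr17:32035912-32036161, plus strand): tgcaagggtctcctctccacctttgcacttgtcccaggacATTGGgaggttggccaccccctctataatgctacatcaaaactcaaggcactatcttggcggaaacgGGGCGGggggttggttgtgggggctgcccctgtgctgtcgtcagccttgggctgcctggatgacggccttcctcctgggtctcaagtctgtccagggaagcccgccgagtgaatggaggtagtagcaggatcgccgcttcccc
The Nup210 stretch held 2 GC boxes and no CCAAT box, and that of Cnot2 held 1 GC box. The Rrp1b stretch held 1 GC box and 1 CCAAT box, which do not overlap. Of all 32851 stretches of this length in the table, 32.7% held a GC box and 33.8% a CCAAT box. G and C made up 71.2% of the Nup210 stretch, 57.6% of that of Cnot2 and 60.4% of that of Rrp1b. Sequences of Ndn, Sipa1 and Arhgap25 were also in the table and are not printed, and the table had no entry for Cadm1 or Luc7l.

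Cadm1 had the largest difference among the brightest tested probe sets of the 6 tested modifiers. Its protein joins neighbouring epithelial cells and ties the junction to the cytoskeleton. At probe set 1417378_at, the brightest of 4, the log2 values were 6.68, 6.62 and 6.55 in Met1 1 to 3, and 7.15, 7.42, 7.25 and 7.49 in DB7 1 to 4. Every DB7 array lay above every Met1 array, and the lowest DB7 value was that of DB7 1. Met1 averaged 6.62 ± 0.07 (SD, n = 3), and DB7 averaged 7.33 ± 0.15 (SD, n = 4). The difference was -0.71 (SE 0.10; limma, adjusted p = 0.000739), which is 1.64-fold lower in Met1.

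A second Cadm1 probe set, 1417376_a_at, read 6.33, 6.11 and 6.09 in Met1 and 6.84, 6.90, 7.05 and 7.31 in DB7, again without overlap. This gave a difference of -0.85 (SE 0.13; limma, adjusted p = 0.0012), or 1.8-fold. The third, 1417377_at, read 6.22, 6.35 and 6.12 against 6.59, 6.66, 6.74 and 7.05, with a difference of -0.53 (SE 0.12; adjusted p = 0.0107). These 2 passed the filter through their DB7 values alone, on 4 and 3 DB7 arrays, so a difference was built into their being tested. The fourth, 1431611_a_at, lay above the array median only on DB7 3 and was not tested. It read 6.13, 6.15 and 5.96 in Met1 against 6.14, 6.33, 6.66 and 6.56 in DB7, where the groups overlapped, with a difference of -0.34 (95% confidence interval -0.63 to -0.05). The 4 probe sets thus shared a direction and differed in size, from -0.85 to -0.34. The difference at 1417376_a_at exceeded those at 1417377_at and 1431611_a_at by 0.32 and 0.51 (exact permutation test over the arrays, two-sided, p = 0.0286 for each, the smallest p that 3 against 4 arrays allow, and 0.269 adjusted over the 47 pairs of member probe sets).

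Among epithelial genes measured beside Cadm1, 5 of 7 tested (8 listed) were lower in Met1, namely Krt7, Krt8, Krt18, Cldn4 and Epcam. Cldn3 and the adhesion gene Cdh1, the rest of those tested, differed by 0.16 and 0.06 without passing (limma, adjusted p = 0.338 and 0.735). The mean log2 value of the 8 was 9.28 to 9.64 over the Met1 arrays and 9.96 to 10.10 over the DB7 arrays. Their part in the Cadm1 result was not tested.

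**Figure D2:**
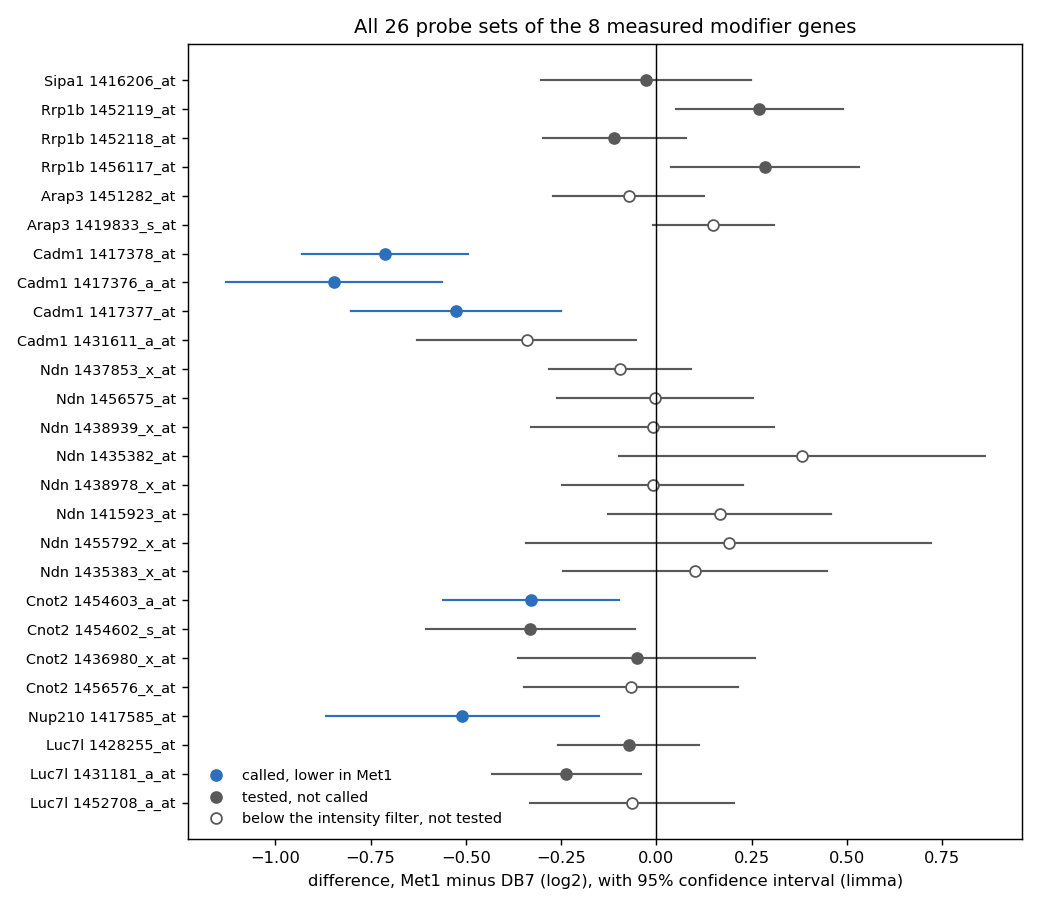
Difference between the lines, Met1 minus DB7 on the log2 scale (x axis), with limma's 95% confidence interval for each of the 26 probe sets of the 8 measured modifiers (y axis). Filled points were tested, open points lay below the intensity filter. The 5 called probe sets are the 3 of Cadm1, 1 of Cnot2 and 1 of Nup210, all below 0, and the open Ndn points lie on both sides of 0 with wide intervals.

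Nup210 encodes a ring-forming glycoprotein that spans the nuclear membrane at the pore. Its single probe set, 1417585_at, had log2 values of 6.98, 7.03 and 6.81 for the Met1 arrays and of 7.32, 7.21, 7.35 and 7.91 for the DB7 arrays. DB7 4 stood well above the other DB7 arrays, and no DB7 array reached down to Met1. The means were 6.94 ± 0.11 (SD, n = 3) and 7.45 ± 0.32 (SD, n = 4), a difference of -0.51 (SE 0.16; limma, adjusted p = 0.038), or 1.42-fold lower in Met1. The call was lost without Met1 1 (difference -0.53, adjusted p = 0.0913), Met1 2 (-0.55, adjusted p = 0.0812), Met1 3 (-0.44, adjusted p = 0.139) or DB7 3 (-0.54, adjusted p = 0.0613), and kept without DB7 4, where the difference was -0.35. It was also lost when dim probe sets were not filtered (adjusted p = 0.0563).

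Many other genes of the nuclear pore were lower too. The list around Nup210 holds genes of the pore, of the nuclear lamina and of the complex that links the lamina to the cytoskeleton. Of 30 tested (37 listed, 33 measured), 15 were lower and 1 was higher in Met1. The median difference was -0.35, against -0.04 over all tested genes. Nup85, a subunit of the pore's outer ring, was at 10.99 ± 0.19 in DB7 (SD, n = 4) and 2.72-fold lower, at 9.55 ± 0.12, in Met1 (SD, n = 3; limma, adjusted p = 5.36e-05), and its other probe set differed by -1.27. Nup62, of the central channel, was 1.59-fold lower, at 7.91 ± 0.03 against 8.58 ± 0.10 (adjusted p = 0.000373). Nup88 and Nup107 were 1.49-fold and 1.48-fold lower (adjusted p = 0.000685 and 0.00204).

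Ndc1 and Pom121, the other membrane proteins of the pore on the list, fell by 0.57 and 0.36 (limma, adjusted p = 0.00577 and 0.0136). Ndc1, and Lmnb2 below, passed the filter through their DB7 values alone. A further Pom121 probe set differed by -0.14 and did not pass. Lmnb1 and Lmnb2, lamins of the nuclear lamina, and Sun1, which anchors the lamina to the cytoskeleton, were among the 15 that were lower. The single gene that was higher was Lmna, the A-type lamin, at 0.38 (SE 0.08; limma, adjusted p = 0.00838). Without suffixed probe sets (names ending in _a_at, _s_at, _x_at or _f_at), which leaves fewer genes of this list to test, 9 were lower.

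Cnot2 holds the CCR4-NOT complex together beside its scaffold. Of its 4 probe sets, 1454603_a_at had log2 values of 7.81, 7.87 and 7.70 for Met1, and DB7 lay at 8.08, 8.31, 8.18 and 7.92. The groups did not overlap, although DB7 4 came close to Met1 2. The difference was -0.33 (SE 0.10; limma, adjusted p = 0.0381), or 1.26-fold lower in Met1. 1454602_s_at differed by -0.33 as well (SE 0.12), with values of 7.70 to 7.78 in Met1 and 7.86 to 8.39 in DB7, and did not pass (adjusted p = 0.0688).

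The other Cnot2 probe sets did not show this difference. 1436980_x_at read 7.46, 7.36 and 7.37 in Met1 against 7.37, 7.84, 7.37 and 7.22 in DB7, with a difference of -0.05 (95% confidence interval -0.36 to 0.26). It stood apart from 1454602_s_at by 0.28 (exact permutation test, two-sided, p = 0.0286, the smallest possible; 0.269 adjusted over the 47 pairs). 1456576_x_at lay below the array median on every array and differed by -0.07. On each of the 4 probe sets DB7 2 was the highest array.

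Of the 3 called genes, Cnot2 lost its call in the most settings. It was lost without Met1 1 (difference -0.34, limma adjusted p = 0.0942), Met1 2 (-0.37, 0.0733), Met1 3 (-0.28, 0.15), DB7 2 (-0.26, 0.0653) or DB7 3 (-0.31, 0.0867). It was also lost under quantile normalization (adjusted p = 0.0504), under median centring (0.0766) and without the filter (0.0578).

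Genes that act with Cnot2 moved in both directions. Of 19 tested genes of the CCR4-NOT complex and of RNA decay (25 listed, 20 measured), 2 were higher and 3 lower in Met1, with a median difference of 0.00. Ago2, the slicing Argonaute of microRNA silencing, fell 1.56-fold, and Cnot9, another subunit of the complex, fell 1.32-fold (limma, adjusted p = 0.00191 and 0.00598). The third lower gene was Cnot6l, a deadenylase of the complex, at -0.36 (adjusted p = 0.0486), and its other tested probe set differed by 0.08 (adjusted p = 0.497). The list's lower count was 2 under median centring, without the filter and in 6 of the 7 fits that left out an array. Tnrc6c, which brings CCR4-NOT to microRNA targets, rose 1.48-fold and Tob1, an antiproliferative adaptor of the complex, rose 1.56-fold (adjusted p = 0.00197 and 0.00624). The subunit genes Cnot3, Cnot7 and Cnot8 differed by 0.04 (SE 0.12), 0.28 (SE 0.18) and -0.12 (SE 0.08) without passing. A dimmer probe set of Cnot8 differed by -0.49 and was called (adjusted p = 0.00417). Cnot1, the scaffold, had no probe set of its own symbol.

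Rrp1b showed probe sets of opposite sign. The brightest, 1452119_at, had log2 values of 7.48, 7.45 and 7.79 for Met1, and DB7 lay at 7.37, 7.33, 7.21 and 7.30. Met1 3 was the highest, and every Met1 array lay above every DB7 array. The means of 7.57 ± 0.19 (SD, n = 3) and 7.30 ± 0.07 (SD, n = 4) differ by 0.27 (SE 0.10; 95% confidence interval 0.05 to 0.49), which did not pass (limma, adjusted p = 0.0641). 1456117_at differed by 0.28 (SE 0.11; adjusted p = 0.0779), at 6.59, 6.68 and 6.89 against 6.38, 6.27, 6.58 and 6.52, and passed the filter through its Met1 values alone.

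The remaining Rrp1b probe set, 1452118_at, read 6.85, 6.67 and 6.92 against 6.99, 6.91, 6.87 and 6.92, a difference of -0.11 with overlap (adjusted p = 0.352). It differed from 1452119_at by 0.38 (exact permutation test, two-sided, p = 0.0286, the smallest possible; 0.269 adjusted over the 47 pairs), although the annotation gives the same source sequence for both. Whether Rrp1b was called depended on the setting. Under quantile normalization the 2 probe sets with the positive sign were called higher in Met1, at 0.30 and 0.32 (limma, adjusted p = 0.0457 and 0.0402), and under median centring they were called at 0.31 and 0.32 (adjusted p = 0.0444 and 0.0459). With array weights and the values as deposited they were called at 0.35 and 0.31 (adjusted p = 0.0342 and 0.0484).

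Nucleolar and chromatin genes around Rrp1b were mostly not called. Of 22 tested (22 listed), 1 was higher and 4 were lower in Met1, with a median difference of -0.11. Nop58, a core protein of box C/D snoRNPs, fell 1.63-fold (limma, adjusted p = 0.00245). Cbx5, the heterochromatin protein HP1 alpha, fell 1.49-fold and Srsf1, a splicing factor, fell 1.46-fold (adjusted p = 0.019 and 0.022). Further Cbx5 probe sets, 1421934_at and 1450416_at, were called lower as well, at -0.36 and -0.53 (limma, adjusted p = 0.00529 and 0.00116). The tested Cbx5 probe set 1421932_at differed by 0.04 and was not called. Npm1, nucleophosmin, was the fourth and fell by 0.42. Ppp1cc, a catalytic subunit of protein phosphatase 1, rose 1.22-fold (adjusted p = 0.0228), and its other probe set differed by 0.03. Rrp1, the paralog of Rrp1b, differed by -0.06 (SE 0.08) without passing. Without DB7 1, 8 genes of this list were lower, without Met1 1 or Met1 3 only 1, and without Met1 2, DB7 2 or DB7 3 there were 2.

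Sipa1 was not called. Its probe set, 1416206_at, had log2 values of 7.09, 7.04 and 7.08 for Met1, and DB7 lay at 7.38, 6.84, 6.995 and 7.18. The Met1 arrays lay close together, whereas DB7 1 and DB7 4 lay above all of them and DB7 2 and DB7 3 below all of them. The means were 7.07 ± 0.03 (SD, n = 3) and 7.10 ± 0.23 (SD, n = 4). The difference was -0.03 (SE 0.12; limma, adjusted p = 0.886), with a 95% confidence interval of -0.30 to 0.25. The sign turned positive under quantile normalization and median centring, and without DB7 1 and DB7 4 the difference was 0.15 (adjusted p = 0.242).

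Sipa1 is known for its high level in lymphocytes, and the means of several marker lists ranked the DB7 arrays as Sipa1 did. Averaged over 12 pan-leukocyte genes, the log2 value was 8.02 for DB7 1 and 7.88 for DB7 4, against 7.29 for DB7 2, 7.46 for DB7 3 and 7.39 to 7.56 for the Met1 arrays. Of 10 tested members of this list, 1 was lower in Met1, the actin-bundling gene Lcp1, and 0 were higher, with 2 lower and 0 higher at an unadjusted p under 0.05 in limma. For 7 B cell and plasma cell genes the mean was 7.13 for DB7 1 and 7.40 for DB7 4, and 5.85 to 6.20 for the other 5 arrays. Here DB7 4 lay above DB7 1, the reverse of Sipa1. Macrophage and endothelial genes gave the Sipa1 order of DB7 arrays. In DB7 1 to 4 the means were 9.097, 8.11, 8.24 and 8.73 over 9 macrophage genes and 7.30, 6.65, 6.69 and 7.02 over 10 endothelial genes. In Met1 1 to 3 they were 8.64, 9.07 and 8.95 for macrophage genes and 6.86, 7.05 and 7.09 for endothelial genes. Met1 2 and Met1 3 thus lay above DB7 4 on both lists, unlike for Sipa1. The part of these cell types in the Sipa1 values was not tested.

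**Figure D3:**
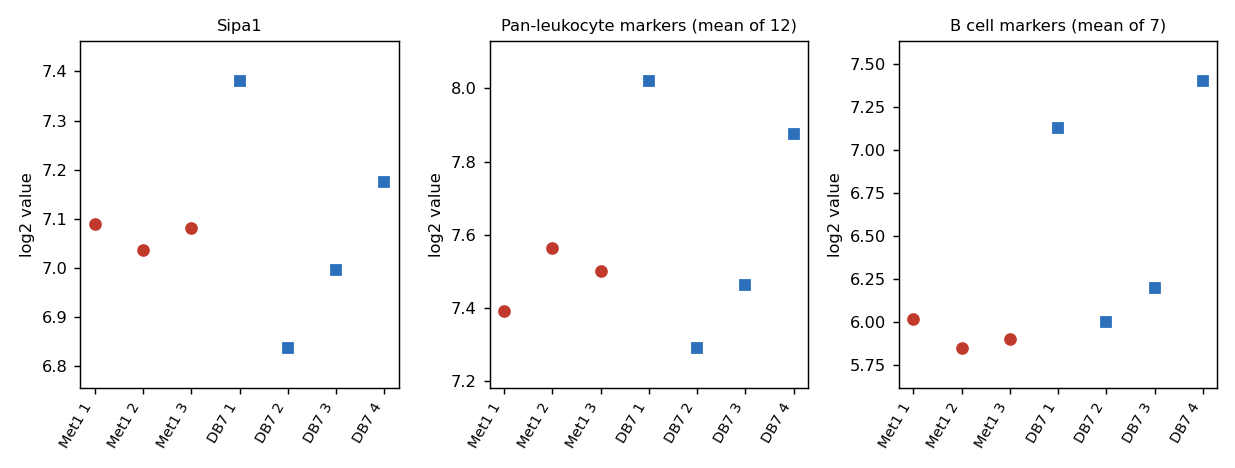
Log2 value per array (y axes, each with its own range, not starting at 0) of Sipa1, of the mean of 12 pan-leukocyte genes and of the mean of 7 B cell and plasma cell genes, with circles for Met1 and squares for DB7 (x axes). In all 3 panels DB7 1 and DB7 4 are the highest arrays, and DB7 2 is the lowest DB7 array.

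Sipa1 acts in the Rap1 pathway. Of 15 tested genes (29 listed, 18 measured), 1 was lower and 0 were higher in Met1, with 1 lower and 2 higher at an unadjusted p under 0.05 in limma, and the median difference was 0.09. Over all tested genes 30.9% were called, and the difference between these shares was not tested. The gene that was called was Rap1a, a Rap1 GTPase, at 9.26 ± 0.10 in Met1 (SD, n = 3) against 9.69 ± 0.23 in DB7 (SD, n = 4; limma, adjusted p = 0.0309), and its other probe set fell by 0.57. Rap1b, the close relative of Rap1a, differed by 0.14 (SE 0.07) without passing, as did Rap2a (0.32, SE 0.11) and the Sipa1 relative Sipa1l2 (0.20, SE 0.08). Under quantile normalization, under median centring and without DB7 2, 2 genes of this list were higher. The Rap1a call at the brighter probe set was lost under median centring, under the replicate block and in 5 of the 7 fits that left out an array. The Sipa1 relatives Sipa1l1 and Sipa1l3 had no probe set of their own symbol.

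Luc7l was not called. Its brightest probe set, 1428255_at, read 8.68, 8.64 and 8.47 in Met1 and 8.64, 8.68, 8.64 and 8.72 in DB7, a difference of -0.07 (SE 0.08; limma, adjusted p = 0.542). 1431181_a_at read 7.56, 7.27 and 7.40 against 7.63, 7.63, 7.74 and 7.60 without overlap, and its difference of -0.24 (SE 0.09) had an adjusted p of 0.0682. This probe set was called lower with array weights (-0.26, limma adjusted p = 0.0347) and without Met1 1 (-0.31, adjusted p = 0.0385). The third probe set, 1452708_a_at, lay below the array median throughout and held 5.38 on every Met1 array.

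Factors of U1 snRNP and of 5′ splice site choice gave 4 lower and 0 higher of 17 tested genes (23 listed, 18 measured), with 6 lower and 1 higher at an unadjusted p under 0.05 in limma. The median difference was -0.20. The Luc7l paralog Luc7l3 fell 1.32-fold (limma, adjusted p = 0.0106), as did Snrpb (1.45-fold), Snrpe (1.35-fold) and Sf1 (1.32-fold; adjusted p = 0.0177, 0.0288 and 0.0413), the last a branch point factor and the others proteins of the snRNP core. Probe sets of the other paralog, Luc7l2, disagreed. The brightest differed by -0.39 (SE 0.18; adjusted p = 0.139), while 1427087_at was called higher in Met1 at 0.41 (SE 0.12; adjusted p = 0.0318). Leaving out the suffixed probe sets (_a_at, _s_at, _x_at or _f_at) removed the probe sets of all 4 called genes, and 0 were lower. The count was 0 without Met1 2, 1 without Met1 3, 2 without Met1 1 and 2 under median centring.

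**Figure D4:**
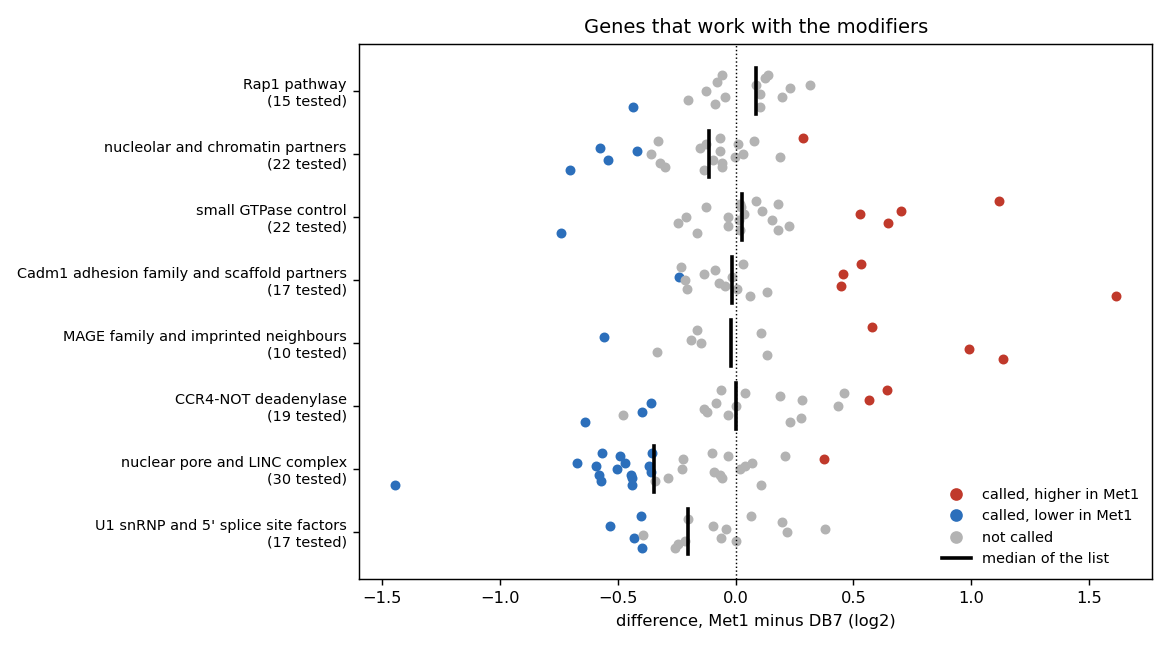
Difference between the lines, Met1 minus DB7 on the log2 scale (x axis), for the tested genes of 8 lists that act with the modifiers (y axis, vertical jitter only to separate points). A point is a gene, coloured where called, and a black bar is the list's median. The nuclear pore list lies mostly below 0 with a median of -0.35, and the points farthest above 0 are Itgb4, Peg3 and Arhgap5, each on a different list.

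Arap3 and Ndn lay below the intensity filter and were not tested. Arap3 is bound by PI3K lipid products and acts on Arf6. Its probe set 1451282_at read 6.27, 6.11 and 6.34 in Met1 and 6.32, 6.22, 6.44 and 6.27 in DB7, below the array medians of 6.53 to 6.61, and 1419833_s_at read 4.69 to 4.89 against 4.57 to 4.69. The differences were -0.07 and 0.15, with 95% confidence intervals of -0.27 to 0.12 and -0.01 to 0.31 in the unfiltered fit. They stood apart from each other by 0.22 (exact permutation test, two-sided, p = 0.0286, the smallest possible; 0.269 adjusted over the 47 pairs). Arap3 is known as an endothelial gene, and the mean of 10 endothelial genes was 6.86 to 7.09 in Met1 and 6.65 to 7.30 in DB7, with 0 of 7 tested called in limma and 0 at an unadjusted p under 0.05.

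None of the 8 Ndn probe sets rose above the array median on any array. Their log2 values ran from 3.50 to 5.90, and their differences from -0.10 to 0.38 with overlap of the lines in each. The widest difference was at 1435382_at, which read 4.15, 5.05 and 4.47 in Met1 and 4.61, 4.01, 4.04 and 4.04 in DB7. Met1 2 and DB7 1 were the highest arrays there. They were also the highest at 1438939_x_at, 1415923_at, 1455792_x_at and 1435383_x_at, but not at 1437853_x_at, 1456575_at or 1438978_x_at. The same 2 arrays had the highest mean of 9 measured fibroblast genes (9.24 and 9.32, against 7.79 to 8.91 in the others). They were highest for 6 adipocyte genes too (7.33 and 7.49, against 6.02 to 6.88). Ndn is known from mesenchymal and fat precursor cells. The mean of 9 macrophage genes was also highest in these arrays (9.07 and 9.097, against 8.11 to 8.95). The match was thus not particular to fibroblast and adipocyte genes. The part of any of these cell types in the Ndn values was not tested, and no level can be read from probe sets this dim.

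Most of the GTPase genes that act with Arap3 were not called. Of 22 tested (30 listed, 26 measured), 4 were higher and 1 was lower in Met1, with a median difference of 0.03. Over all tested genes 30.9% were called in either direction. Arf6, the GTPase that Arap3 switches off, rose 1.44-fold, with DB7 at 9.57 ± 0.23 (SD, n = 4) and Met1 at 10.10 ± 0.04 (SD, n = 3; limma, adjusted p = 0.0117), with other tested probe sets at 0.33 and 1.15. Arap2, the Arap3 paralog, rose 1.57-fold and Pik3cg, the catalytic subunit of PI3K gamma, rose 1.63-fold (adjusted p = 0.00664 and 0.00654). Pik3cg passed the filter through its Met1 values alone, so a difference was built into its being tested. Arhgap5, a GTPase-activating protein, rose 2.17-fold with a spread of 0.53 in DB7 (SD, n = 4). Its probe set lay above the array median on 3 Met1 arrays and 1 DB7 array. The Met1 values alone were thus enough for Arhgap5 to be tested. Arf5 fell 1.67-fold (adjusted p = 0.00456), while Arap1 differed by 0.09 (SE 0.11). Under the stricter filter, which drops every gene that is dim on any array, 1 gene of this list was higher.

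Among adhesion and scaffold genes around Cadm1, 4 of 17 tested (24 listed, 22 measured) were higher and 1 was lower in Met1, opposite to Cadm1 for the 4. The integrin subunits Itgb4, with which Cadm1 is reported to associate, and Itga6 rose 3.06-fold and 1.36-fold (limma, adjusted p = 9.12e-05 and 0.0105). The junction scaffold genes Dlg1 and Mpp5 rose 1.37-fold and 1.44-fold (adjusted p = 0.00988 and 0.0321), and a dimmer probe set of Dlg1 differed by -0.03. Pvr, a nectin-like receptor, was the gene that was lower (-0.24, adjusted p = 0.0406), a call that was lost under both other normalizations and, among the fits that left out an array, kept only without DB7 2. Cadm4, another member of the Cadm family, differed by 0.06 (SE 0.08).

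Of 10 tested genes on the MAGE and imprinted gene list around Ndn (22 listed, 19 measured), 3 were higher and 1 was lower in Met1. The imprinted genes Peg3, a zinc finger protein, and Grb10, an adaptor that damps insulin receptor signals, rose 2.2-fold and 1.98-fold (limma, adjusted p = 0.000174 and 0.003), and a second tested Peg3 probe set rose by 2.08. Hif1a, the hypoxia factor that necdin binds, rose 1.49-fold (adjusted p = 0.00329). Its other tested probe set differed by 0.24 without passing (limma, adjusted p = 0.101). E2f1, the cell cycle factor that necdin represses, fell 1.47-fold (adjusted p = 0.000574). The MAGE family members Maged1 and Maged2 differed by -0.16 (SE 0.11) and 0.11 (SE 0.10) without passing. Without suffixed probe sets (_a_at, _s_at, _x_at or _f_at) 1 gene was higher and 0 were lower.

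In all, 152 partner genes of 212 listed were tested, and 15 were higher and 30 lower in Met1, which is 29.6% called and close to the 30.9% of all genes. Of the 152, 3 were above the array median in 1 line only, Ndc1, Lmnb2 and Pik3cg, and all 3 were called. Of the 30, 15 came from the nuclear pore list. The total of 45 was 28 without Met1 2 and 29 without Met1 3.

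The modifiers lie on 7 chromosomes, with Nup210 and Arhgap25 both on chromosome 6 and Rrp1b and Luc7l both on chromosome 17. Of the 10 tested genes nearest to each modifier, 5 on each side, between 1 and 4 were called, where 30.9% of all tested genes were called. Around Nup210 there were 3, all lower in Met1 (Hdac11, Chchd4 and Lsm3), with a median of -0.16. Around Cadm1 there was 1, Rexo2, which was lower (median -0.10), and around Cnot2 there were 3 lower (Tbc1d15, Rab21 and Lgr5) and 1 higher (Tmem19). Around Rrp1b, Sik1, a salt-inducible kinase, was higher by 2.08 (limma, adjusted p = 0.000817) and Ndufv3 was lower. Around Arhgap25, which had no probe set of its own, Gfpt1, the first enzyme of hexosamine synthesis, fell by 1.03 (SE 0.10; limma, adjusted p = 0.000137), and Rab43 was lower too. Near Ndn, Prmt3, Tubgcp5 and Mtmr10 were lower and Otud7a was higher. Near Sipa1, Rnaseh2c was lower and Ltbp3 higher. Nr3c1 near Arap3 was higher, and Bnip1 near Luc7l was lower.

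The genes most like each tested modifier over the 7 arrays, by Pearson correlation of log2 values among 7482 genes, are given as a description, since few arrays in 2 groups give high correlations readily. For Cadm1 they were Fzd8 (r = 0.998) and Kdm3a (r = 0.995), and for Nup210 Tex261 (r = 0.982) and St3gal5 (r = 0.98). For Cnot2 they were Spcs2 (r = 0.994) and Eif4e, the cap-binding translation factor (r = 0.981). Sipa1 was most like Fcgr4, an Fc receptor of myeloid cells (r = 0.991), and Nbl1 (r = 0.983). Rrp1b was most like Nrep (r = 0.957) and Zfp334 (r = 0.95), and Luc7l like Bag2 (r = 0.94) and Scarb2 (r = 0.935).

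Within the lines, the tested member probe sets varied slightly more than others. On the log2 scale their median SD was 0.11 for the Met1 arrays and 0.16 for the DB7 arrays, against 0.09 and 0.14 over all tested probe sets. Arrays of one line correlated at 0.994 to 0.996 in Met1 and 0.986 to 0.992 in DB7 over all probe sets, and at 0.967 to 0.972 between the lines.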

How the data were processed

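Total RNA of transplant tumours was measured on 7 Affymetrix arrays of 1 colour, 3 labelled Met1 and 4 DB7. The deposited values are probe set summaries on a log2 scale, as judged from their range (2.27 to 14.0), since the authors' log base is not stated. RMA and MAS5 both appear in the submitters' processing notes, and which of them made these values, with what version, is not given in the sources used here. If RMA made them, differences of dim probe sets are compressed. Precision is limited by the number of arrays.

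Of 22690 probe sets, 64 controls were left out. The platform annotation gave 1 symbol to 20380 of the rest, several to 691 and none to 1555; by Entrez identifier no symbol needed updating against RefSeq (GRCm38.p6). The difference Met1 minus DB7 was fitted by limma 3.58.1 (R 4.3.3; lmFit with a term for the tumour line alone, eBayes with its trend option, Benjamini-Hochberg over the 11704 tested probe sets, two-sided). Each gene was represented by its tested probe set of highest mean value. Values below the filter come from the same fit over all 22626 probe sets. Probe sets of one gene were compared by an exact permutation test over the 35 divisions of the arrays. The fit was tested on simulated data.

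Members, partner lists, markers and alternatives were chosen with earlier results of these data known. Genes named are all members, the up to 4 genes of each partner list with the smallest p, and direct relatives and binding partners of members. The 2 genes most like each member and called neighbours are named too. Lmna, Lmnb1, Lmnb2, Sun1, Npm1, Pvr, Cnot6l, Lcp1, Cldn3, Cdh1 and the 5 called epithelial genes were added after their values were seen. Replicate numbers gave no pairing: deviations of Met1 and DB7 arrays with the same number correlated at -0.172, -0.0532 and 0.0157.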

Additional observations from a re-analysis of the deposited data

Results flagged for a closer look

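In the group of 4 DB7 arrays, the highest or lowest array was compared with the others for each of the 26 member probe sets by Dixon's test at the 95% level, which sets its gap to the nearest array against the group's range. Chance alone marks about 1 in 20 groups. Of the 26, 2 were marked, both at probe sets below the array median. Ndn 1435382_at read 4.61 in DB7 1, against 4.01 to 4.04 in the other DB7 arrays. Luc7l 1452708_a_at read 5.79 in DB7 2, against 5.30 to 5.38.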

How the results depend on the processing

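Alternatives covered quantile normalization, median centring, no filter, a stricter filter (above the median on all 7 arrays), no intensity trend and array weights. They also covered the probe set with the largest SD and removal of suffixed probe sets (names ending in _a_at, _s_at, _x_at or _f_at). Further fits left out each array, left out DB7 1 and DB7 4 together, or took the replicate number as a block. Called modifier genes (3) numbered 1 to 3 in the 7 fits that left out an array and 1 without a filter. Called member probe sets (5) numbered 2 to 5 with an array left out and 3 without a filter. They numbered 2 under the stricter filter, 9 with array weights and 3 without suffixed probe sets. Partner genes called (45) numbered 28 to 53 with an array left out and 26 without suffixed probe sets. Lower genes of the nuclear pore list (15) numbered 10 to 17 with an array left out and 9 without suffixed probe sets. With fewer arrays or probe sets, fewer calls follow in part from the construction. The standing and the second Cadm1 probe sets kept their call in every setting in which they were tested (adjusted p up to 0.00859 in limma); 1417377_at lost it without Met1 3 (0.0503). The 2 positive Rrp1b probe sets passed under both normalizations and array weights. Sipa1 changed sign under quantile normalization (0.0030), median centring (0.010), and without DB7 1 and DB7 4 (0.15), and ranged from -0.11 to 0.067 with an array left out, positive only without DB7 1. It passed in no setting. Cnot2 1436980_x_at ranged from -0.13 to 0.079 with an array left out, positive only without DB7 2.

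With the replicate number as a block (replicate block), 2 modifier genes and 4 member probe sets were called. Nup210 was lost in this fit (-0.35, limma adjusted p = 0.0527). Called partner genes numbered 36, and lower genes of the nuclear pore list numbered 10. The numbers do not pair the arrays. The pairs of probe sets gave 5 with p under 0.05 as deposited and 5 under quantile normalization. With an array left out this exact test cannot go below 0.0667 or 0.1 and was not run.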
